A study of Mus musculus with 23 samples.

Results

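The genes described here encode subunits of the oxidative phosphorylation system of mouse mitochondria. They were chosen by symbol: every row of the deposited table of normalized counts whose symbol starts with Nduf followed by a, b, c, s or v and a number, is one of Sdha to Sdhd, or starts with Uqcr, Cox4 to Cox8 or Atp5, and every mitochondrially encoded Nd, Co, Cytb or Atp gene. The rule found 81 of the 19945 genes in the table, 80 from nuclear chromosomes and 1, mt-Nd6, from the mitochondrial genome. By complex, 36 belonged to complex I, 4 to complex II, 8 to complex III, 19 to complex IV and 14 to complex V. Ndufa4 and Ndufa4l2, which carry a complex I name, were placed with complex IV, where the Ndufa4 protein is now assigned.

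Oxidative phosphorylation passes electrons from NADH (through complex I) and succinate (through complex II) by way of ubiquinone to complex III, and from there by cytochrome c to complex IV, which reduces oxygen. Complexes I, III and IV pump protons out of the matrix, and complex V, the ATP synthase, uses their return to make ATP. Most subunits are imported products of nuclear genes, a small core is made inside the mitochondrion, and several complex IV subunits exist as a common form and a second form whose use is restricted to certain tissues. Lymphocytes are known to change their reliance on this system as they go from proliferation in culture to residence in a tissue.

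RNA was sequenced in 23 libraries labelled ILC2s (group 2 innate lymphoid cells), lymphocytes that lack antigen receptors and make type 2 cytokines. There were 6 libraries of transferred cells from the brain at day 5, 6 from day 5 blood and 6 from day 1 blood, timed after middle cerebral artery occlusion (MCAO), which mimics ischemic stroke, and 5 of a baseline taken straight from culture. All 4 groups share their origin: male B6.Cg-Tg(CAG-GFP)Smoc mice of 8 to 10 weeks, transgenic and wild-type, that had received IL-33 every 2 days for 7 days, and from whose spleen and marrow lineage-negative CD25+ cells were cultured for 14 days with IL-33, IL-15, IL-2 and IL-7. A further sort took CD45+Lin-ST2+KLRG1+CD127+ cells for intravenous transfer 6 hours after MCAO. The labels do not say whether the baseline passed this sort, how cells were sorted on recovery, or whether replicates came from separate animals, so p-values measure only the spread between these libraries. The comparisons ask how gene expression differed between the cells after transfer and before it, and between brain and blood.

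Recovered reads came to 11.6 to 58.1 M per library, 11.6 to 16.9 M in the 12 libraries of batch 1 and 27.8 to 58.1 M in the 11 of batch 2, and both batches held all 4 groups. Brain replicate 2, blood day 1 replicates 2 and 6 and culture replicate 5 stood apart from other libraries of their groups, and counts of calls without these 4 are given below. Across genes, brain replicate 2 correlated with the other brain libraries at 0.755 to 0.837, while brain replicates 1 and 3 correlated at 0.965 and culture replicates 1 to 3 at 0.975 to 0.983. The brain libraries went against their label, and the culture libraries did so in part. A list of 12 measured ILC2 genes summed to 0.0240% to 0.0456% of all normalized counts in brain libraries, 0.281% to 0.379% in day 5 blood, 0.0800% to 0.363% in day 1 blood and 0.419% to 0.590% in culture, and of the 11 tested 3 were higher and 7 lower in brain than in culture, and 4 were higher and 3 lower in each blood group. Of the genes of the sort markers and of the lineage, Il1rl1 (ST2) had 3.41 to 136 normalized counts in brain, 47.2 to 232 in day 5 blood and 0 to 303 in day 1 blood, against 5.42 in culture replicate 1 and none in the other 4. Il7r (CD127) ranged from 35.8 to 142 in brain, 1160 to 3131 in day 5 blood, 370 to 2456 in day 1 blood and 0 to 75.8 in culture, and Gata3 from 0 to 22.2, 1270 to 1895 and 591 to 2357 in those groups and 139 to 534 in culture. Klrg1 ranged from 1.87 to 23.4 in brain, 4367 to 22020 in day 5 blood, 2181.6 to 10246 in day 1 blood and 15664 to 50175 in culture. NK cell genes summed to at most 0.00157% of the total in brain, 0.552% to 2.23% in day 5 blood, 0.268% to 1.10% in day 1 blood and 2.13% to 8.34% in culture. T cell genes summed to at most 0.00159% in brain, 0.122% to 0.167% in day 5 blood and 0.0989% to 0.257% in day 1 blood. In culture they summed to 0.316% to 1.02%. They exceeded the ILC2 list in culture replicates 4 (0.593% against 0.429%) and 5 (1.02% against 0.590%) and lay below it in replicates 1 to 3. In the same brain libraries choroid plexus genes (8 of 8 higher than in culture) summed to 1.52% to 7.87% of the total, oligodendrocyte genes (8 of 8) to 1.03% to 1.53%, microglial genes (9 of 10) to 0.708% to 1.80% and astrocyte genes (8 of 8) to 0.0988% to 0.349%. Of the 8 choroid plexus genes, Clic6, Prlr and Otx2 had no read in any culture library, where the list summed to at most 0.00162%. Blood libraries carried red cell genes at 0.267% to 3.72% of the total on day 5 and 0.357% to 8.40% on day 1, and platelet genes at 0.182% to 1.54% and 0.442% to 5.32% on those days. In culture red cell genes summed to 0.00104% to 0.409% and platelet genes to 0.000315% to 0.0376%, both highest in culture replicate 4. Of 8 neutrophil genes 7 were higher than in culture on both days, and 1 was lower on day 1. They summed to 0.183% to 2.73% in day 5 blood and 0.0395% to 0.231% in day 1 blood, against at most 0.0178% in culture. B cell genes (8 of 8 higher on day 5 and 7 on day 1) summed to 0.220% to 0.481% in day 5 blood. In day 1 blood B cell genes summed to 0.0480% to 0.299%, against at most 0.0129% in culture. The part of these other cell types in the results that follow was not tested, and in such bulk libraries fewer cells of a type and less RNA per cell cannot be told apart.

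The nuclear members together took up a similar share of each group's normalized counts. They summed to 1.41% ± 0.472 of the total in brain, 1.19% ± 0.101 in day 5 blood, 1.37% ± 0.239 in day 1 blood (SD, n = 6 each) and 1.39% ± 0.391 in culture (SD, n = 5). By library the share was 1.03%, 2.21%, 1.00%, 1.74%, 1.26% and 1.22% in brain replicates 1 to 6, 1.23%, 1.35%, 1.13%, 1.12%, 1.07% and 1.21% in day 5 blood, 1.44%, 1.05%, 1.49%, 1.40%, 1.14% and 1.70% in day 1 blood, and 1.05%, 1.14%, 1.13%, 1.91% and 1.70% in culture. The groups overlapped, brain replicate 2 was the highest library of all, and the 2 culture libraries of batch 2 lay above the 3 of batch 1. Day 5 blood had the narrowest range.

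**Figure D1:**
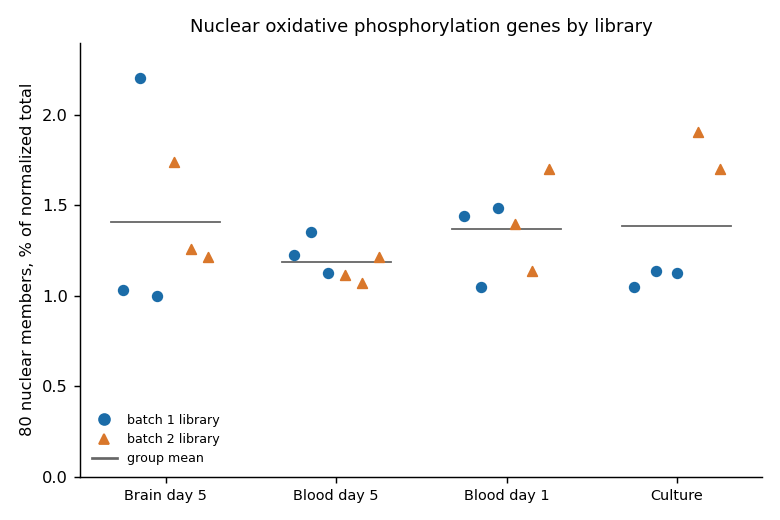
Summed normalized counts of the nuclear oxidative phosphorylation genes as a percent of each library's total, by group, with batch 1 as circles, batch 2 as triangles and the group mean as a line. The groups overlap, and the 2 batch 2 culture libraries (1.91% and 1.70%) sit above the 3 of batch 1 (1.05% to 1.14%).

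The single mitochondrially encoded member, mt-Nd6 (chrM:13552-14070, minus strand, GRCm38), encodes a membrane subunit of complex I and is the one such subunit read from the light strand, opposite an exon of mt-Nd5. It had no read in any of the 12 batch 1 libraries. In batch 2 it stood at 922.5, 789.5 and 1187 normalized counts in brain, 530.2, 615 and 740 in day 5 blood, 260.3, 485 and 92.8 in day 1 blood, and 599 and 7144 in culture. Per 1000 normalized counts of nuclear members that was 2.70 ± 0.709 in brain, 3.14 ± 0.286 in day 5 blood and 1.21 ± 1.10 in day 1 blood (SD, n = 3 each), against 8.35 ± 10.0 in culture (SD, n = 2), where the 2 libraries gave 1.26 and 15.4. Culture replicate 5 thus lay far above all other batch 2 libraries, and leaving it out turned the log2 ratio of brain to culture to 1.06, against -0.74 with it. Without it the log2 ratio to culture was 1.31 in day 5 blood, against -0.50 with it, and -0.58 in day 1 blood, against -2.38 with it. The limma test, described next, called mt-Nd6 in none of the 5 comparisons. Its batch 1 differences were 0 by lack of reads and drew the fitted ones toward 0, so the absence of calls decides nothing. For day 1 blood against culture the log2 difference was -3.18 in batch 2 and -1.43 in the fit. Nuclear against mitochondrial levels could be described in batch 2 alone. That description rests on this 1 gene, the only mitochondrially encoded subunit gene in the table.

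The makeup of the nuclear set differed more than its sum. Complex II genes made up 8.32% ± 1.33 of the nuclear members' normalized counts in brain, 9.08% ± 0.546 in day 5 blood and 8.04% ± 0.853 in day 1 blood, against 5.23% ± 0.396 in culture. In brain replicates 1 to 6 the values were 8.76%, 7.66%, 8.56%, 7.87%, 10.5% and 6.56%, and in culture replicates 1 to 5 they were 5.62%, 5.43%, 5.47%, 4.95% and 4.68%. Day 5 blood ranged from 8.11% to 9.59% and day 1 blood from 6.49% to 8.70%, so the libraries taken after transfer and those from culture did not overlap, in either batch. Complex V genes took 38.6% to 39.0% of the nuclear counts in the 3 batch 1 culture libraries and 25.6% to 26.2% in the 2 of batch 2. In the other groups complex V ranged from 24.3% to 34.6% in brain, 28.1% to 35.1% in day 5 blood and 25.6% to 34.4% in day 1 blood, so its order relative to culture depended on the batch.

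**Figure D2:**
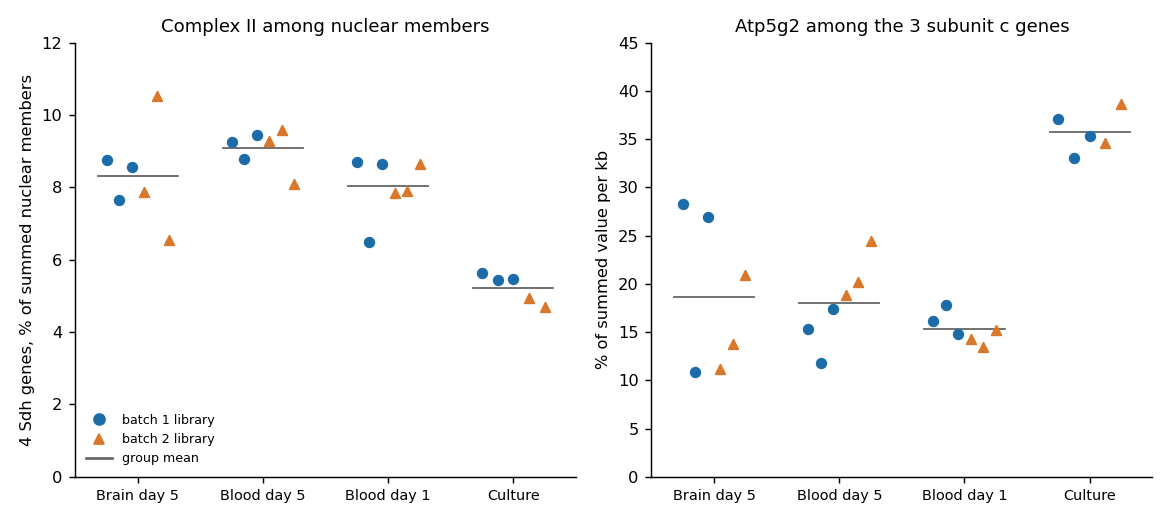
Left, the 4 complex II genes as a percent of the nuclear members' summed normalized counts in each library; right, Atp5g2 as a percent of the summed level per kilobase of the 3 subunit c genes, with batch 1 as circles, batch 2 as triangles and group means as lines. Culture is below all other libraries for complex II (4.68% to 5.62%) and above them for Atp5g2 (33.1% to 38.7%). The Atp5g2 share depends on the exon lengths used.

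Differences per gene were tested with limma on log2(normalized count + 1) over all 23 libraries with the batch as a covariate, and a gene is called, and the words rose and fell are used, where its Benjamini-Hochberg adjusted p over the 15268 genes tested was below 0.05. Of the 81 members 79 were tested, and Cox4i2 and Cox8c did not reach 10 normalized counts in 5 libraries. The 3 comparisons with culture share the same 5 culture libraries, and brain with blood day 5 shares those groups with them. All calls named below had the same sign in both batches.

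In brain compared with culture, members moved both ways: 15 rose and 8 fell. The rises were 5 complex I genes, 3 of the 4 complex II genes, Uqcrc1 of complex III, 5 complex IV genes (Ndufa4, Ndufa4l2, Cox6a2, Cox6b2 and Cox8b), and Atp5a1 of complex V. The falls were Cox7a2, Cox7b and Cox7c, small subunits of complex IV, and 5 complex V genes. Higher calls made up 19.0% of members, against 37.5% of all genes tested, and lower calls 10.1%, against 11.7%. In either direction 23 of the 79 were called, against 49.2% of all genes. The median log2 difference of the 79 members was 0.17, against 0.67 for all genes tested. Within batches the member median was 0.27 in batch 1 and -0.28 in batch 2. Groups did not overlap for 5 of the 15 rises, against 74.3% of all genes called higher. Those 5 include Cox8b and Ndufa4l2, whose testing depended on their brain levels. For the falls it was 2 of the 8, against 58.6% of all genes called lower. Without brain replicate 2 the counts were 9 rises and 13 falls, without culture replicate 5 there were 4 falls, and without brain replicate 1, 3 or 5 there were 5. Without the 4 libraries that stood apart 12 rose and 13 fell, while calls over all genes in either direction went from 7513 to 8515. Among the rises Sdha, Cox6a2, Cox6b2 and Ndufa4 held in every alternative analysis, leaving aside Cox8b and Ndufa4l2, which were tested only through their brain levels, as described with their values.

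In day 5 blood compared with culture, falls prevailed: 4 members rose and 21 fell. Falls comprised 9 of 14 complex V genes, 6 complex IV genes, 3 complex III genes and 3 complex I genes, and rises were Sdhb, Cox6a2, Cox6b2 and Ndufa4. Lower calls made up 26.6% of members, against 11.4% of all genes, and higher calls 5.06%, against 19.6%. In all 25 of the 79 were called, against 31.1% of all genes. The member median was -0.65, against 0.14 for all genes, with -0.21 in batch 1 and -1.16 in batch 2. Groups did not overlap for 17 of the 21 falls, against 68.7% of all genes called lower. Red cell, platelet, neutrophil and B cell sums were higher in these blood libraries than in culture, as given above. The red cell sum of culture replicate 4 alone reached the blood range. Without the 4 libraries that stood apart 4 members rose and 27 fell, while calls over all genes in either direction went from 4748 to 6332. Of the falls, 14 held whichever library was left out, and Atp5g2 and Ndufc2 held in every alternative. The change differed between batches for Atp5c1, Ndufs7 and Cox7c, 3 of 79 members, against 8.42% of all genes. The 4 rises came down to 2 without culture replicate 1 or 3 or without blood day 5 replicate 2, 3 or 6.

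In day 1 blood compared with culture 9 members rose and 8 fell. Rises were Ndufa9 and Ndufs8, Sdha and Sdhb, Uqcrc1, Ndufa4, Cox6a2 and Cox6b2, and Atp5a1. Falls were Ndufa5 and Ndufc2, Cox7c and Cox8b, and Atp5d, Atp5g1, Atp5g2 and Atp5j2. Higher calls made up 11.4% of members, against 18.1% of all genes, and lower calls 10.1%, against 14%. Together 17 of the 79 were called, against 32.1% of all genes. The member median was -0.09, against 0.04, with 0.31 in batch 1 and -0.68 in batch 2, and 35 of the 79 members had the same sign in both batches, against 57.4% of all genes. Cox6c and Ndufa6 differed in their change between batches, 2 of 79 members, against 9.63% of all genes. Without the 4 libraries that stood apart 7 rose and 11 fell, while calls over all genes in either direction went from 4905 to 5725. The falls came down to 5 without culture replicate 2, 3 or 5 or without blood day 1 replicate 4 or 5. Cox6b2, Atp5g2 and Cox7c held in every alternative.

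Between brain and blood on day 5, 28 members rose in brain and none fell, counted by limma. Rises reached all complexes: 12 genes of complex I, Sdhc of complex II, 5 of the 8 complex III genes, 5 of complex IV and 5 of complex V. Higher calls made up 35.4% of members, against 33.6% of all genes, a share near the background, while 14.3% of all genes were called lower and 47.9% were called in either direction. Of the 79 members 76 had a positive difference, against 61.6% of all genes. The median of the 79 was 0.60, against 0.47 for all genes. Within batches it was 0.35 in batch 1 and 0.92 in batch 2, against 0.50 and 0.48 for all genes. Groups did not overlap for 13 of the 28, Cox8b and Ndufa4l2 among them, against 71.6% of all genes called higher. Without the libraries that stood apart 27 rose, while calls over all genes in either direction went from 7306 to 9252. No member was lower at an unadjusted p below 0.05, and edgeR and DESeq2 also called none lower. With library totals set equal, which moved the all-gene median to 0.08, 11 members rose. Sdhc, Atp5g1 and Ndufc2 held in every alternative, Cox8b and Ndufa4l2 again left aside.

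**Figure D3:**
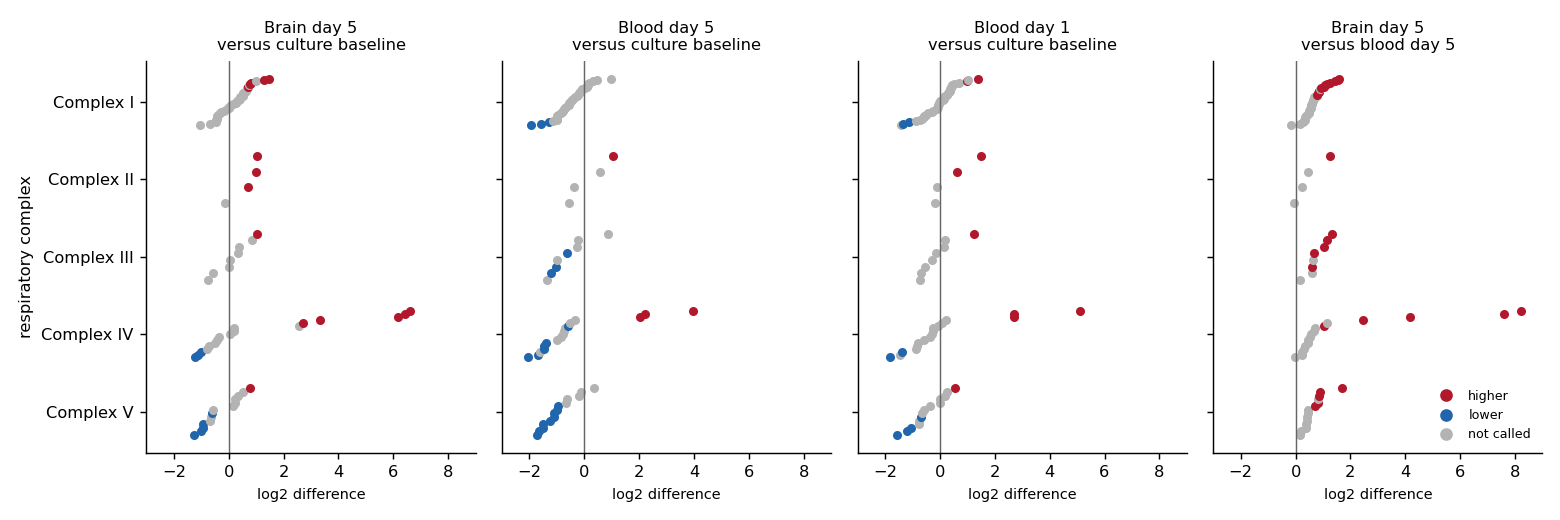
Log2 differences of the tested members by respiratory complex in 4 comparisons, one point per gene, red where called higher, blue where called lower and grey where not called. Complex V leans to falls in day 5 blood against culture (9 of 14 called), and in brain against day 5 blood all 28 called members are higher.

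Between blood day 5 and blood day 1 no member was called, by limma, edgeR or DESeq2, where limma called 0.0982% of all genes higher, 0.00655% lower and 0.105% in either direction. The differences were negative for 77 of the 79 members, with a median of -0.47, against 0.12 for all genes, of which 41.4% were negative. The member median was -0.50 in batch 1 and -0.46 in batch 2. With library totals set equal it was -0.22, against 0.33 for all genes, and 69 of the 80 members then tested were negative. Without the 4 libraries that stood apart it was -0.27, against 0 for all genes, and 73 of the 79 were negative. Unadjusted p was below 0.05 for 8 of the 79 members, against 7.64% of all genes.

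Complex I joins a peripheral arm, which takes electrons from NADH, to a membrane arm, which moves protons, and its nuclear genes encode 7 core subunits and many accessory ones. Of the 36 tested genes 5 rose in brain, none rose in day 5 blood and 2 rose in day 1 blood relative to culture, and 0, 3 and 2 fell in those groups. The rises were 13.9%, 0% and 5.56% of the complex, against 37.5%, 19.6% and 18.1% of all genes. The falls were 0%, 8.33% and 5.56%, against 11.7%, 11.4% and 14%. Among the core subunits Ndufs1, Ndufs8 and Ndufv1 rose in brain and Ndufs8 in day 1 blood.

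Ndufs8 (chr19:3908863-3912774, minus strand), a core subunit that carries iron-sulfur clusters near the quinone site, had 2324 to 9291 (median 4271) normalized counts in brain, 1909 to 4411 (median 2988) in day 5 blood and 2472 to 5410.0 (median 4381) in day 1 blood. In culture the values were 1370.2, 1374, 1382, 4047 and 861. Culture replicate 4 reached the range of the other groups and the other 4 culture libraries lay below all libraries taken after transfer. It rose in brain by 1.46 (SE 0.37, adjusted p = 0.00209) on the log2 scale and in day 1 blood by 1.38 (SE 0.37, adjusted p = 0.00648).

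Ndufc2 (chr7:97400003-97407802, plus strand), an accessory subunit of the membrane arm, had 1558 to 5126 (median 2531) normalized counts in brain, 704 to 1161 (median 820.2) in day 5 blood and 843 to 1403 (median 1235) in day 1 blood. Culture replicates 1 to 5 had 2199, 2338, 2294, 1655 and 5795. All day 5 and day 1 blood libraries lay below all culture libraries, and all brain libraries lay above all day 5 blood libraries. Its log2 difference was -1.58 (SE 0.31, adjusted p = 0.000394) in day 5 blood and -1.11 (SE 0.31, adjusted p = 0.00884) in day 1 blood against culture, and 1.60 (SE 0.30, adjusted p = 9.56e-05) in brain against day 5 blood.

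Ndufa5 (chr6:24518666-24528013, minus strand), an accessory subunit of the peripheral arm, had 475 to 2569.9 (median 865) normalized counts in brain, 384 to 757 (median 475) in day 5 blood and 633 to 1003 (median 765) in day 1 blood. Values in culture were 1525, 1792, 1604, 887 and 7828. Its high value in culture replicate 5 stood far from the other 4. It fell in day 5 blood, where no library reached the culture range (log2 difference -1.95, SE 0.45, adjusted p = 0.00182), and in day 1 blood (log2 difference -1.35, SE 0.45, adjusted p = 0.0266), a call that was lost without culture replicate 5 (adjusted p = 0.117). Other complex I calls were Ndufv3 in day 5 blood, which fell with a log2 difference of -1.30, and rises of Ndufa11 (1.27) and Ndufa9 (0.81) in brain. Against day 5 blood rises in brain included Ndufa11, Ndufa12, Ndufb2, Ndufb5, Ndufb6, Ndufb10, Ndufc1, Ndufs3, Ndufs5 and Ndufv3, with log2 differences of 0.78 to 1.54.

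Complex II, succinate dehydrogenase, is also an enzyme of the tricarboxylic acid cycle and is encoded by nuclear genes alone. Sdha (chr13:74322254-74350280, minus strand) encodes its flavoprotein, which oxidises succinate, and had 7654 to 16294 (median 11083) normalized counts in brain, 6818 to 9273 (median 8058) in day 5 blood and 6418 to 9957 (median 8209) in day 1 blood. In culture libraries they were 4390.5, 5036, 4907, 6781 and 5846. Every brain library and every day 5 blood library lay above every culture library, and day 1 blood overlapped culture through culture replicate 4. Sdha rose in brain by 1.04 (log2 scale, SE 0.22, adjusted p = 0.000446) and in day 1 blood by 0.62 (SE 0.22, adjusted p = 0.0394), and its difference in day 5 blood, 0.58 (SE 0.22, adjusted p = 0.0537), missed the threshold. The day 1 call was lost when any of culture replicates 1, 2 and 3 and blood day 1 replicates 1, 2 and 3 was left out, with adjusted p up to 0.0993.

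Sdhb (chr4:140961203-140979193, plus strand), the iron-sulfur subunit that passes electrons from the flavoprotein toward ubiquinone, had 3271 to 14111 (median 5252) normalized counts in brain, 4462 to 8183 (median 5941) in day 5 blood and 3884 to 12754 (median 8202) in day 1 blood. The 5 culture libraries had 2237, 2126, 2133, 2561 and 7233. Culture replicate 5 lay within the range of the other groups, and the other 4 culture libraries lay below all libraries taken after transfer. In log2 terms the difference was 0.98 (SE 0.39, adjusted p = 0.0421) in brain, 1.05 (SE 0.39, adjusted p = 0.0459) in day 5 blood and 1.51 (SE 0.39, adjusted p = 0.00485) in day 1 blood. The day 1 blood call held whichever library was left out. The brain call was lost without any of culture replicates 1, 2, 3 and 4 and brain replicates 2, 4 and 6 (adjusted p up to 0.129), and the day 5 blood call without any of culture replicates 1, 2, 3 and 4 and blood day 5 replicates 1, 2, 3 and 6 (adjusted p up to 0.108).

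Sdhc (chr1:171127165-171150603, minus strand) and Sdhd (chr9:50596357-50603812, minus strand) encode the membrane anchors that bind ubiquinone. Sdhc had 5063 to 10774 (median 5509.7) normalized counts in brain, 2333 to 3554 (median 2609) in day 5 blood and 2638 to 4758 (median 3572) in day 1 blood. In culture the values were 3410.2, 3443, 3635, 7105 and 3125. All brain libraries lay above all day 5 blood libraries, and all but culture replicate 4 of the culture libraries lay below all brain libraries. Sdhc was higher in brain by 1.26 (log2 scale, SE 0.23, adjusted p = 8.67e-05) against day 5 blood and by 0.71 (SE 0.25, adjusted p = 0.0187) against culture, the second call being lost without either of culture replicate 5 and brain replicate 2 (adjusted p up to 0.0548). Sdhd had 2584 to 8942 (median 4062) normalized counts in brain, 2646 to 4375 (median 3691) in day 5 blood and 1937 to 6689 (median 4422) in day 1 blood. Culture replicates 1 to 5 had 3594, 3892, 3848, 7007 and 5470.1. Sdhd was called in no comparison.

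Complex III passes electrons from ubiquinol to cytochrome c. Of its 8 genes 1 rose in brain, none rose in day 5 blood and 1 rose in day 1 blood against culture, 3 fell in day 5 blood, and 5 were higher in brain than in day 5 blood. The rises were 12.5%, 0% and 12.5%, against 37.5%, 19.6% and 18.1% of all genes. The falls in day 5 blood were 37.5%, against 11.4%, and the genes higher in brain than in day 5 blood 62.5%, against 33.6%. Uqcrc1 (chr9:108936633-108949623, plus strand), a large core subunit on the matrix side, had 7914 to 37027 (median 12549) normalized counts in brain, 8431 to 19105 (median 12070.0) in day 5 blood and 10104 to 21189 (median 17472) in day 1 blood. Values in culture were 4927, 4809, 5185, 25143 and 5101. Culture replicate 4 was above all day 5 blood and day 1 blood libraries, while the other 4 culture libraries were below every other library. Log2 differences were 1.03 (SE 0.42, adjusted p = 0.0448) in brain and 1.25 (SE 0.42, adjusted p = 0.0253) in day 1 blood. The brain call was lost without any of culture replicates 1, 2, 3 and 5 and brain replicates 2, 4, 5 and 6 (adjusted p up to 0.136) and the day 1 call without any of culture replicates 1, 2, 3 and 5 (adjusted p up to 0.069).

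Uqcrh (chr4:116066965-116075071, minus strand), the hinge protein next to cytochrome c1, had 2613 to 6634 (median 3097) normalized counts in brain, 1693 to 2831 (median 2210.1) in day 5 blood and 2225 to 4725 (median 3085) in day 1 blood. In culture libraries they were 4194, 4126, 4216, 3490.4 and 13803. Every day 5 blood library lay below every culture library, and the fall was -1.22 (log2 scale, SE 0.32, adjusted p = 0.00489). Uqcrc2 and Uqcrq fell as well, with log2 differences of -0.63 and -1.02. Uqcr11 (chr10:80402997-80406830, minus strand), a small accessory subunit, had 1890.2 to 13393 (median 4402) normalized counts in brain, 928 to 2540.5 (median 2009) in day 5 blood and 1081 to 8439.8 (median 2971) in day 1 blood. The 5 culture libraries had 1803, 2692, 2524, 14705 and 3254. It was higher in brain than in day 5 blood by 1.33 (log2 scale, SE 0.53, adjusted p = 0.0442), with overlapping groups, and this call was lost without any of blood day 5 replicates 1, 3, 4 and 5 and brain replicates 2, 4 and 6 (adjusted p up to 0.126). The other complex III genes higher in brain than in day 5 blood, with log2 differences in parentheses, were Uqcr10 (1.14), Uqcrq (1.02), Uqcrc2 (0.69) and Uqcrfs1, the Rieske iron-sulfur protein (0.61).

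Complex IV, cytochrome c oxidase, has nuclear subunits that surround a mitochondrially encoded core. Among the 12 genes of its common subunits 1 rose in each group taken after transfer against culture, and 3 fell in brain, 5 in day 5 blood and 1 in day 1 blood. The rises were 8.33% in each, against 37.5% of all genes in brain, 19.6% in day 5 blood and 18.1% in day 1 blood. The falls were 25.0%, 41.7% and 8.33% in those groups, against 11.7%, 11.4% and 14%. The gene that rose was Ndufa4 in each case. Ndufa4 (chr6:11900292-11907497, minus strand), a subunit at the surface of complex IV, had 1913 to 9653 (median 3786) normalized counts in brain, 1756 to 3640.4 (median 2334) in day 5 blood and 2124 to 9616 (median 3466) in day 1 blood. In culture the values were 428, 393, 393, 373 and 2679. Culture replicate 5 lay within the range of the other groups, and culture replicates 1 to 4 lay below every other library. It rose by 2.71 (log2 scale, SE 0.49, adjusted p = 6.36e-05) in brain, 2.02 (SE 0.49, adjusted p = 0.00277) in day 5 blood and 2.69 (SE 0.49, adjusted p = 0.000181) in day 1 blood, and these calls held whichever library was left out. Within batches the log2 difference was 3.04 in batch 1 and 2.12 in batch 2 for brain, 2.81 in batch 1 and 0.96 in batch 2 for day 5 blood and 3.69 in batch 1 and 1.43 in batch 2 for day 1 blood.

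A relative of Ndufa4 that the rule does not cover, AA467197, moved the other way. The protein it encodes can take the place of Ndufa4 in complex IV, and the gene was singled out here after its values were seen. AA467197 stood at 22.4, 64.8, 43.0, 11.5, 11.0 and 42.0 normalized counts in brain replicates 1 to 6, at 11.1 to 86.6 in day 5 blood and at 34.1 to 83.8 in day 1 blood. In culture it stood at 44452, 39624, 40511, 16378 and 49236. The lowest culture library was far above the highest of all other libraries. Per kilobase of exon, AA467197 made up 0.599% ± 0.483 of the summed level of the 3 relatives (Ndufa4, Ndufa4l2 and AA467197) in brain, 1.39% ± 1.19 in day 5 blood, 1.05% ± 0.489 in day 1 blood and 97.0% ± 2.61 in culture. Ndufa4 made up 94.3% ± 2.59 in brain, 98.6% ± 1.17 in day 5 blood, 99.0% ± 0.489 in day 1 blood (SD, n = 6 each) and 2.99% ± 2.61 in culture (SD, n = 5). AA467197 held most of the sum in every culture library and Ndufa4 in every other library.

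**Figure D4:**
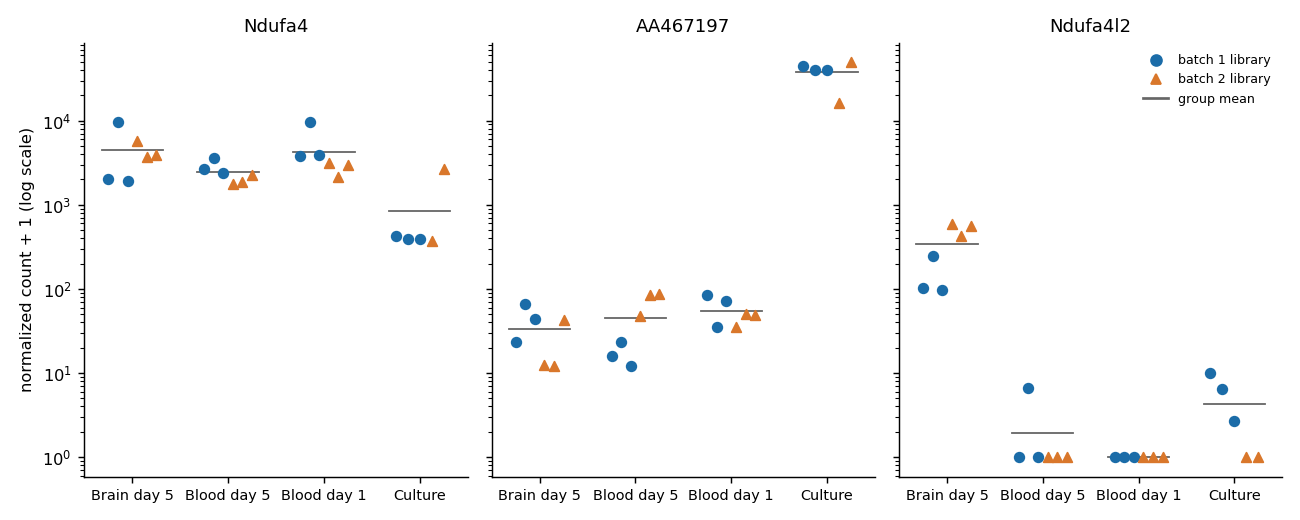
Normalized counts plus 1 of Ndufa4, AA467197 and Ndufa4l2 in every library on a log axis, by group, with batch 1 as circles, batch 2 as triangles and the group mean as a line. AA467197 is at 16378 or more in every culture library and at most 86.6 elsewhere, while Ndufa4 is lowest in culture replicates 1 to 4 and Ndufa4l2 is highest in brain.

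Of the small common subunits, Cox7c (chr13:86044816-86046904, minus strand) had 477 to 992 (median 702) normalized counts in brain, 377 to 1093 (median 514) in day 5 blood and 477 to 734 (median 574) in day 1 blood. Culture replicates 1 to 5 had 1006, 1237, 1195, 1250.2 and 4118. All brain and day 1 blood libraries lay below all culture libraries, and in day 5 blood 1 library reached into the culture range. By limma the log2 difference was -1.10 (SE 0.35, adjusted p = 0.0123) in brain, -1.46 (SE 0.35, adjusted p = 0.00265) in day 5 blood and -1.38 (SE 0.35, adjusted p = 0.00454) in day 1 blood, and the brain call was lost without culture replicate 5 (adjusted p = 0.0683). Cox7b (chrX:106015700-106022450, plus strand), another small transmembrane subunit, had 923 to 4825 (median 1769.8) normalized counts in brain, 1019 to 1951 (median 1233) in day 5 blood and 1503 to 3771 (median 2336) in day 1 blood. Values in culture were 2760.3, 3302, 3143, 2391 and 19301. Culture replicate 5 was several times the other 4, and no day 5 blood library reached the culture range. Cox7b fell in brain with a log2 difference of -1.21 (SE 0.46, adjusted p = 0.0339), a call lost without any of culture replicate 5 and brain replicates 1, 3 and 5 (adjusted p up to 0.192), and in day 5 blood with one of -1.67 (SE 0.46, adjusted p = 0.00758).

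Cox7a2 (chr9:79755361-79759878, minus strand), the common form of subunit 7a, had 1553 to 5811 (median 2416) normalized counts in brain, 1472 to 2645 (median 1820.1) in day 5 blood and 1699 to 7139.5 (median 2486) in day 1 blood. In culture libraries they were 4297, 3925, 4056, 3379.9 and 16056, with culture replicate 5 again far above the rest. It was lower in day 5 blood, with a log2 difference of -1.46 (SE 0.40, adjusted p = 0.00737) and no overlap, and in brain, with -1.0 (SE 0.40, adjusted p = 0.0447), a call lost without any of culture replicates 1 and 5 and brain replicates 1, 3, 5 and 6 (adjusted p up to 0.233). Cox7a2l (chr17:83501918-83517330, minus strand), a relative of subunit 7a, ranged from 1648 to 2717 in day 5 blood and from 2804 to 5186 in culture. By limma Cox7a2l was lower in day 5 blood by a log2 difference of -0.60 (SE 0.23, adjusted p = 0.046). That call was lost without any of culture replicates 1, 2, 3 and 5 and blood day 5 replicates 1, 2, 3 and 4 (adjusted p up to 0.16). Cox6c also fell in day 5 blood (log2 difference -1.40).

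Cox4i1 (chr8:120668222-120674207, plus strand), the common form of the largest nuclear subunit, had 9342 to 30333 (median 15195) normalized counts in brain, 5204 to 9820.3 (median 8400.4) in day 5 blood and 4843 to 19226 (median 9153) in day 1 blood. The 5 culture libraries had 9147, 10112, 10061, 17719.6 and 30232. Brain replicate 5 and a day 5 blood library overlapped, and the log2 difference between brain and day 5 blood was 1.04 (SE 0.35, adjusted p = 0.0182), a call lost without brain replicate 2 (adjusted p = 0.054). Cox6a1 (chr5:115345642-115348981, minus strand) and Cox8a (chr19:7215153-7217616, minus strand), the common forms of subunits 6a and 8, were called in no comparison. Cox6a1 ran from 4980.2 to 18649 in brain, 4843 to 7402 in day 5 blood, 5931 to 22282 in day 1 blood and 5194 to 18298 in culture, and Cox8a from 2543 to 9509 in brain, 2620 to 3514 in day 5 blood, 2429 to 10585 in day 1 blood and 3215 to 11154 in culture.

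The second forms of complex IV subunits, which are known for restricted use (heart and muscle for Cox6a2, Cox7a1 and Cox8b, lung for Cox4i2, testis for Cox6b2 and Cox8c, and hypoxia for Ndufa4l2), comprise 7 genes here. Ndufa4l2 reached the filter's 10 normalized counts in the 6 brain libraries alone and Cox8b in those 6 and 1 culture library, so both were tested only because they were high in brain, and their brain values are given as a description with no test. Both are among the 15 rises against culture and the 28 against day 5 blood counted above. Of the other 5, Cox6a2 and Cox6b2 rose in brain against culture, where 37.5% of all genes were called higher, and Cox6b2 and Cox7a1 rose against day 5 blood, where 33.6% were. Cox6a2 and Cox6b2 also rose in each blood group against culture. Cox4i2 and Cox8c did not reach the filter. Most of these genes had few counts in culture and blood, so the log2 differences depend on the added 1. Mural cell genes, a list chosen after values were seen, summed to 0.0351% to 0.144% of the total in brain, 0.00845% to 0.0116% in day 5 blood, 0.00444% to 0.0124% in day 1 blood and 0.00173% to 0.00471% in culture. Of its 8 genes 7 rose in brain against culture. Rgs5 and Pdgfrb had no read in any culture library. Kcnj8 had 427 to 1273 normalized counts in culture and 112 to 687 in brain, and Abcc9 had 0 to 19.8 and 5.11 to 2632. Against day 5 blood 7 rose in brain and Kcnj8 fell. Endothelial genes (6 of 7 tested rose in brain against culture) summed to 0.133% to 0.390% in brain, 0.0251% to 0.0393% in day 5 blood, 0.0248% to 0.0418% in day 1 blood and 0.0228% to 0.0476% in culture. Cox4i2 and Ndufa4l2 are known as genes of pericytes in mouse brain. The part of such cells in these rises was not tested.

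Cox8b (chr7:140898945-140900446, minus strand) had 93.4, 767, 117, 696, 412 and 284 normalized counts in brain replicates 1 to 6. It had no read in any day 5 blood library, 1.5 in blood day 1 replicate 6 and none in the other day 1 libraries, and 1.81, 11.0, 6.60, 0 and 3.69 in culture replicates 1 to 5. Every brain library lay far above every other library. Set against a floor of 3 reads per library, Cox8b was at least 131-fold higher in brain than in day 5 blood, and at least 70.4-fold higher within batch 1 and at least 328-fold within batch 2. Against culture the log2 difference in brain was 6.17 (SE 0.65). Per kilobase of exon Cox8b made up 9.52% ± 3.66 of the subunit 8 transcripts in brain and 0.189% ± 0.168 in culture, and its calls as lower in both blood groups than in culture compare levels of at most 11.0.

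Ndufa4l2 (chr10:127514967-127517154, plus strand) had 101, 247, 96.4, 595, 419 and 562 normalized counts in brain replicates 1 to 6. In day 5 blood 1 library had 5.58 and the others none, no day 1 blood library had a read, and culture replicates 1 to 5 had 9.03, 5.48, 1.65, 0 and 0. Brain did not overlap any other group. The log2 difference was 6.59 (SE 0.71) against culture and 7.60 (SE 0.67) against day 5 blood. Against culture it was 4.60 in batch 1 and 9.02 in batch 2, sizes that depend on the added 1. In batch 2, where culture and day 5 blood had no read, brain was at least 247-fold higher than culture and at least 371-fold higher than day 5 blood. An exon of Ndufa4l2 overlaps Shmt2 on the opposite strand, and the strand setting of the authors' counting is not given in the sources used here, so reads of the 2 genes cannot be told apart there.

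Cox6b2 (chr7:4751792-4753094, minus strand) had 448, 811, 411, 788, 410.1 and 479.6 normalized counts in brain, 94.3, 78.2, 169, 79.0, 75.2 and 108 in day 5 blood, 196, 780.2, 151, 186, 132 and 152 in day 1 blood and 1.81, 7.31, 0, 32.5 and 9.60 in culture. All libraries taken after transfer lay above all culture libraries, and brain lay above day 5 blood without overlap. Its log2 difference was 6.43 (SE 0.70, adjusted p = 4.49e-08) in brain, 3.98 (SE 0.70, adjusted p = 9.64e-05) in day 5 blood and 5.09 (SE 0.70, adjusted p = 4.87e-06) in day 1 blood against culture, and 2.46 (SE 0.66, adjusted p = 0.00354) in brain against day 5 blood. Its share of subunit 6b per kilobase was 9.29% ± 2.23 in brain, 2.25% ± 0.765 in day 5 blood, 3.48% ± 1.11 in day 1 blood and 0.0977% ± 0.0793 in culture.

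Cox6a2 (chr7:128205435-128206387, minus strand, with an exon that overlaps Itgad on the opposite strand) had 87.8, 174, 31.0, 97.3, 90.1 and 193 normalized counts in brain, 31.4, 50.3, 50.5, 30.7, 45.0 and 61.9 in day 5 blood, 64.1, 27.9, 156, 54.5, 38.8 and 89.1 in day 1 blood and 9.03, 20.1, 8.25, 42.7 and 0 in culture. Culture replicate 4 overlapped the other groups and the remaining culture libraries were lower than all others. In log2 terms the difference was 3.34 (SE 0.78, adjusted p = 0.000904) in brain, 2.21 (SE 0.78, adjusted p = 0.0334) in day 5 blood and 2.69 (SE 0.78, adjusted p = 0.0104) in day 1 blood, the day 5 call being lost without any of culture replicates 1, 3 and 5 and blood day 5 replicates 2, 3, 5 and 6 (adjusted p up to 0.149).

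Cox7a1 (chr7:30184144-30186078, plus strand) had 5.60, 308, 6.89, 255, 193 and 155 normalized counts in brain, 16.5, 14.0, 0, 0, 11.9 and 0 in day 5 blood, 5.23, 15.5, 5.86, 4.96, 9.83 and 12.7 in day 1 blood and 19.9, 16.4, 18.2, 33.9 and 0 in culture. Brain replicates 1 and 3 were as low as the blood and culture libraries and the other 4 brain libraries were above all of them. The log2 difference against day 5 blood was 4.19 (SE 1.13, adjusted p = 0.00366), with 1.98 in batch 1 and 6.40 in batch 2, and the difference of 2.56 against culture was not called. Cox4i2 (chr2:152754173-152765037, plus strand), which was not tested, had 119.6, 1.70, 1.72, 68.9, 52.1 and 43.4 in brain, at most 3.67 in day 5 blood, at most 9.30 in day 1 blood and at most 1.81 in culture. Cox8c (chr12:102899316-102900526, plus strand), also not tested, had no read in brain or culture, reached 22.6 in 1 day 5 blood library and was at most 1.65 in all others.

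**Figure D5:**
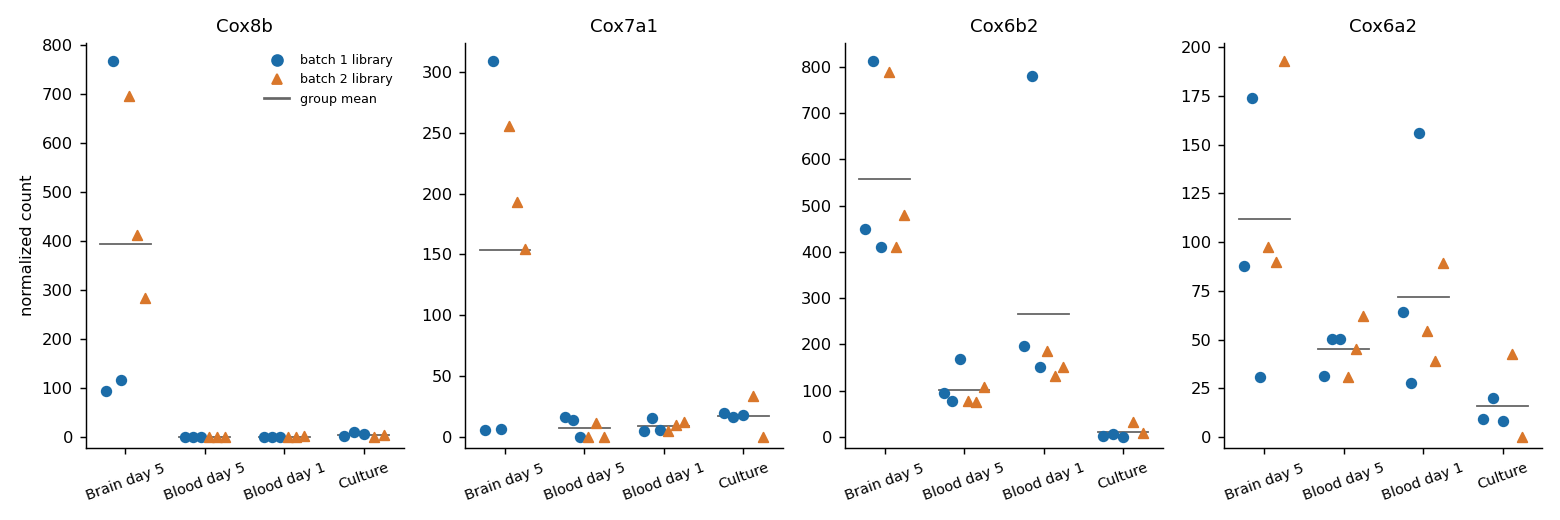
Normalized counts of Cox8b, Cox7a1, Cox6b2 and Cox6a2, second-form complex IV genes, in every library by group, with batch 1 as circles, batch 2 as triangles and the group mean as a line. Cox8b is above all other groups in every brain library, Cox7a1 is high in 4 of the 6 brain libraries, and Cox6b2 is lowest in culture.

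Complex V consists of a catalytic head, to which Atp5a1 and Atp5b belong, and a membrane sector whose ring is built of subunit c. Of its 14 genes 1 rose and 5 fell in brain, none rose and 9 fell in day 5 blood, and 1 rose and 4 fell in day 1 blood against culture, and 5 were higher in brain than in day 5 blood. The rises were 7.14%, 0% and 7.14%, against 37.5%, 19.6% and 18.1% of all genes. The falls were 35.7%, 64.3% and 28.6%, against 11.7%, 11.4% and 14%. The genes higher in brain than in day 5 blood were 35.7%, near the 33.6% of all genes. Subunit c is encoded by Atp5g1, Atp5g2 and Atp5g3, which specify the same mature protein and differ mainly in their import sequences, so reads that fit more than 1 of them, or a processed copy elsewhere, make their split uncertain.

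Atp5a1 (chr18:77773729-77782869, plus strand), the alpha subunit of the head, had 17132 to 29421 (median 20243) normalized counts in brain, 14404 to 16753 (median 15655) in day 5 blood and 13867 to 23687 (median 17739) in day 1 blood. In culture the values were 14330.5, 14051, 14563, 12446 and 7734. All brain libraries lay above all culture libraries. It rose in brain by 0.76 (log2 scale, SE 0.20, adjusted p = 0.00301) and in day 1 blood by 0.55 (SE 0.20, adjusted p = 0.0409), the day 1 call being lost without any of culture replicate 5 and blood day 1 replicates 1, 2, 3, 4 and 6 (adjusted p up to 0.153). Its partner Atp5b was called in no comparison. Genes higher in brain than in day 5 blood were Atp5g1 and, with log2 differences in parentheses, Atp5g2 (0.81), Atp5j (0.88), Atp5o (0.87) and Atp5g3 (0.72). Exons of Atp5j and Atp5o overlap Gabpa and Donson, whose reads cannot be told apart from theirs there.

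Atp5g2 (chr15:102662864-102672352, minus strand) had 1386 to 2242 (median 1805) normalized counts in brain, 657 to 1512 (median 1023) in day 5 blood and 733 to 1644 (median 1016) in day 1 blood. Culture replicates 1 to 5 had 3367, 3289.5, 3635, 3760.1 and 2662. Every library taken after transfer lay below every culture library. The log2 difference against culture was -0.92 (SE 0.25, adjusted p = 0.00311) in brain, -1.74 (SE 0.25, adjusted p = 7.27e-06) in day 5 blood and -1.58 (SE 0.25, adjusted p = 2.50e-05) in day 1 blood, with -2.01 in batch 1 and -1.44 in batch 2 for day 5 blood. Per kilobase of exon Atp5g2 made up 18.7% ± 7.82 of subunit c transcripts in brain, 18% ± 4.32 in day 5 blood and 15.3% ± 1.51 in day 1 blood, against 35.8% ± 2.17 in culture. Atp5g3 made up 70.4% ± 4.69, 76.2% ± 3.83 and 78.4% ± 2.03 in those groups, against 53.7% ± 3.60 in culture. The Atp5g2 share per kilobase did not overlap between culture (33.1% to 38.7%) and any other group. These shares depend on the exon lengths used, 4.912 kb for Atp5g1 against 0.731 kb for Atp5g2 and 0.724 kb for Atp5g3. Shares of the summed normalized counts, in which Atp5g1 weighs more, were not compared.

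Atp5g1 (chr11:96068852-96075670, minus strand) had 3631 to 15459 (median 6656) normalized counts in brain, 1590.1 to 2815 (median 2244) in day 5 blood and 1911 to 4330.4 (median 3269) in day 1 blood. Values in culture were 5566, 6406, 6391, 12855 and 3264. All brain libraries lay above all day 5 blood libraries, and all day 5 blood libraries lay below all culture libraries. Log2 differences were 1.68 (SE 0.35, adjusted p = 0.00031) between brain and day 5 blood, -1.51 (SE 0.37, adjusted p = 0.00258) between day 5 blood and culture, and -1.04 (SE 0.37, adjusted p = 0.0333) between day 1 blood and culture. The last call was lost without any of culture replicates 2, 3 and 4 and blood day 1 replicates 4 and 5 (adjusted p up to 0.123).

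Atp5j2 (chr5:145183698-145192062, minus strand), a small subunit of the membrane sector, had 1719.7 to 5131 (median 2553) normalized counts in brain, 1400.0 to 2756 (median 2263) in day 5 blood and 1577 to 4669 (median 2937) in day 1 blood. In culture libraries they were 4409, 4999, 4864, 5893 and 17839.8. Culture replicate 5 was far above the others. Its log2 difference from culture was -1.26 (SE 0.36, adjusted p = 0.00539) in brain, -1.66 (SE 0.36, adjusted p = 0.000923) in day 5 blood and -1.21 (SE 0.36, adjusted p = 0.0128) in day 1 blood, the last call being lost without culture replicate 5 (adjusted p = 0.0561). The other falls were Atp5d and Atp5e in brain and in day 5 blood, Atp5h in both, Atp5d in day 1 blood, and Atp5c1, Atp5k and Atp5l in day 5 blood, with log2 differences of -1.53 to -0.62.

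Nuclear genes of the system are known targets of NRF1 and of the ETS factor GABPA, and many bear a YY1 site. Promoters from RefSeq (GRCm38.p6) were found for 65 of the 80 nuclear members, and the 250 bases before the start were searched on both strands for GCATGCG (NRF1), CCGGAAG (the ETS family) and AAGATGG (YY1). The NRF1 letters were present in 9 of the 65 (13.8%), against 3.43% of 27025 genes with a promoter, the ETS letters in 12 (18.5%), against 7.83%, and the YY1 letters in 1 (1.54%), against 5.18%. Bases at and after the start were not searched, so sites there, for YY1 or the others, could not be found. At least 1 of the 3 was found in 18 (27.7%), against 15.3% of all genes. By complex that was 6 of 31 genes of complex I, 2 of 3 of complex II, 2 of 5 of complex III, 2 of 13 of complex IV and 6 of 13 of complex V, and none of the 3 second-form genes with a promoter had a match. A match describes letters, and where GCATGCG follows a C the match on the opposite strand overlaps it, so each gene was counted once. The 130 bases before the start are shown for genes whose levels set the groups apart, Sdhb and Ndufa4 lower in most culture libraries, Atp5g2 higher in culture and Cox8b read mainly in brain, with the NRF1 matches in capitals: Sdhb chr4:140961141-140961270 (plus strand), Atp5g2 chr15:102671048-102671177 (minus strand), Ndufa4 chr6:11907451-11907580 (minus strand) and Cox8b chr7:140900447-140900576 (minus strand).
Sdhb: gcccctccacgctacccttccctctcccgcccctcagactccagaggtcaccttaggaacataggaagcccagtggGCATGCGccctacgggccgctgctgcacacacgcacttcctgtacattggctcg
Atp5g2: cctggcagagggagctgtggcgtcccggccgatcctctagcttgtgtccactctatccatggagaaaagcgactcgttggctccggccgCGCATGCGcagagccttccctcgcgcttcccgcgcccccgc
Ndufa4: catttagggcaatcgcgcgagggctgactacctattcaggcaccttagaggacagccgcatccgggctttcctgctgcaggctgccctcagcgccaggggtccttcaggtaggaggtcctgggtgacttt
Cox8b: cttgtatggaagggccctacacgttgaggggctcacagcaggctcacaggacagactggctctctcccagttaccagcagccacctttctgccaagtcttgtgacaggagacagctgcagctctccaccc
The Sdhb window holds the NRF1 letters once, beginning 54 bases before the start, and the Atp5g2 window holds them on both strands in overlapping positions that begin 40 and 41 bases before it. The 250 bases searched for Ndufa4 and Cox8b held none of the 3 motifs. Whether a match goes with the direction of a gene's change was not tested.

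Genes that serve the system without being members of the rule were counted from lists drawn by name. Beside their counts against culture, 37.5% of all genes were called higher and 11.7% lower in brain, 19.6% higher and 11.4% lower in day 5 blood, and 18.1% higher and 14% lower in day 1 blood. Of 13 complex I assembly factors 1 rose and none fell in brain, none rose and 2 fell in day 5 blood, and 2 rose and 2 fell in day 1 blood, against culture. Nubpl, which delivers iron-sulfur clusters to complex I, fell with log2 differences of -1.91 (SE 0.36, adjusted p = 0.000219) in day 5 blood and -1.43 (SE 0.36, adjusted p = 0.00362) in day 1 blood, and was higher in brain than in day 5 blood by 1.75 (SE 0.34, adjusted p = 0.000161). Among 30 assembly factors of the other complexes 2 rose and 1 fell in brain, 4 fell in day 5 blood and 1 rose in day 1 blood, the largest being Coa7 in brain at 1.18 (log2 scale, SE 0.40, adjusted p = 0.0175), Taco1 in day 5 blood at -1.43 (SE 0.45, adjusted p = 0.0173) and Atpaf1 in day 1 blood at 1.44 (SE 0.42, adjusted p = 0.0112).

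Of 19 genes of the tricarboxylic acid cycle, which feeds complexes I and II, and of pyruvate entry, 9 rose in brain (47.4%, against 37.5% of all genes), 3 in day 5 blood (15.8%, against 19.6%) and 6 in day 1 blood (31.6%, against 18.1%), relative to culture. A single gene, Suclg2, fell in day 1 blood. The largest rise was that of Idh2, the mitochondrial NADP-dependent isocitrate dehydrogenase. Idh2 had 4263, 8536, 4200.4, 11501, 6743 and 7482 normalized counts in brain, 1760.0, 1569, 1968, 1415, 1379 and 1696 in day 5 blood, 2871, 3539, 2417, 1359, 1297 and 2932 in day 1 blood and 34.3, 5.48, 1.65, 33.2 and 3.69 in culture. Culture lay far below every other library, and brain above every blood library. By limma the log2 difference was 9.39 (SE 0.53, adjusted p = 1.18e-12) in brain, 7.34 (SE 0.53, adjusted p = 4.49e-10) in day 5 blood and 7.81 (SE 0.53, adjusted p = 1.99e-10) in day 1 blood against culture, and 2.04 (SE 0.50, adjusted p = 0.00167) in brain against day 5 blood.

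Regulators of these genes went both ways, with 2 of 9 higher and 3 lower in brain, 3 and 1 in day 5 blood, and 3 and 1 in day 1 blood, against culture. Ppargc1a, a coactivator of mitochondrial biogenesis, had 275, 276, 303, 524, 559.6 and 404 normalized counts in brain, 38.0, 65.6, 17.4, 57.1, 25.2 and 41.3 in day 5 blood and 22.2, 406, 17.6, 22.9, 0 and 0 in day 1 blood, and in culture it had 3 reads in replicate 4 (2.03 normalized counts) and none in the others. Brain did not overlap day 5 blood or culture, and was higher than day 5 blood by 3.30 (log2 scale, SE 1.01, adjusted p = 0.00922). Nrf1, the factor whose letters were searched above, was lower in brain than in day 5 blood by a log2 difference of -1.59 (SE 0.21, adjusted p = 1.29e-06), and Yy1 was lower than in culture by a log2 difference of -1.39 (SE 0.53, adjusted p = 0.0331) in brain, -1.56 (SE 0.53, adjusted p = 0.0274) in day 5 blood and -2.05 (SE 0.53, adjusted p = 0.00461) in day 1 blood. Myc rose in day 1 blood by 3.64 (log2 scale, SE 1.07, adjusted p = 0.012).

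Among genes of the machinery that makes the mitochondrially encoded subunits, 47 encode the large mitochondrial ribosomal subunit. Of these 10 fell in brain (21.3%, against 11.7% of all genes), 10 in day 5 blood (21.3%, against 11.4%) and 5 in day 1 blood (10.6%, against 14%) relative to culture, and none rose. Of 29 small-subunit genes 8 fell in brain (27.6%), 9 in day 5 blood (31.0%) and 5 in day 1 blood (17.2%), and none rose. Mrps6 fell in day 5 blood by a log2 difference of -2.77 (SE 0.37, adjusted p = 3.57e-06) and in day 1 blood by a log2 difference of -2.41 (SE 0.37, adjusted p = 2.29e-05), and was higher in brain than in day 5 blood by 2.80 (SE 0.35, adjusted p = 5.52e-07). Mrpl33 fell in brain by a log2 difference of -2.27 (SE 0.48, adjusted p = 0.000357) and Mrpl30 in day 5 blood by a log2 difference of -1.69 (SE 0.34, adjusted p = 0.000485). Their culture levels were uneven, with means and SDs of 7620 ± 10404 for Mrpl33 and 3709 ± 2620 for Mrpl30. In batches 1 and 2 the differences were -1.65 and -3.13 for Mrpl33, and -1.09 and -2.52 for Mrpl30. Among 17 genes of mitochondrial DNA replication and transcription 2 fell in brain (11.8%), 3 in day 5 blood (17.6%) and 2 in day 1 blood (11.8%), shares near those of all genes in brain and day 1 blood, and 1 rose in day 5 blood. Tfb1m, a methyltransferase of mitochondrial ribosomal RNA, fell in each, by a log2 difference of -1.87 (SE 0.43, adjusted p = 0.00073) in brain, -2.13 (SE 0.43, adjusted p = 0.000401) in day 5 blood and -1.51 (SE 0.43, adjusted p = 0.00882) in day 1 blood. The gene that rose was Polrmt, the mitochondrial RNA polymerase, in day 5 blood by 1.21 (log2 scale, SE 0.36, adjusted p = 0.0129). Of 19 protein import genes 4 fell in brain (21.1%), 8 in day 5 blood (42.1%) and 7 in day 1 blood (36.8%), and Timm23 rose in day 1 blood (log2 difference 0.78, SE 0.29, adjusted p = 0.0407). Hspa9, the matrix chaperone that pulls proteins in, fell by a log2 difference of -1.04 (SE 0.34, adjusted p = 0.0129) in brain and -2.27 (SE 0.34, adjusted p = 1.43e-05) in day 1 blood.

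Against day 5 blood, brain had 6 of 19 tricarboxylic acid cycle genes higher and none lower, 5 of 19 import genes higher and 1 lower, and 2 of 47 large and 3 of 29 small mitochondrial ribosomal subunit genes higher with 1 lower in each, where 33.6% of all genes were called higher and 14.3% lower. Of 10 subunits and electron carriers outside the symbol rule, 4 rose in brain, 4 fell in day 5 blood and 2 rose in day 1 blood against culture. Ndufab1, the acyl carrier protein of complex I, was higher in brain than in day 5 blood by 1.20 (log2 scale, SE 0.30, adjusted p = 0.00175). Between blood day 5 and blood day 1 no gene of any of these lists was called.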

How the data were processed

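RNA was sequenced from 23 libraries of mouse ILC2s in 4 groups. Per the labels' protocols, cDNA of poly-A RNA was made with random primers, and both ends were sequenced for 150 bp. The submitters' processing notes list fastp, HISAT2 2.0.5 and the mm10 build. The sources used here give no counting tool, annotation or strand setting. The deposited signal values, which the authors name normalized counts, are gene read counts divided by 1 factor per library. Whole reads were recovered: 100% of values were whole within 0.1 read, and edgeR and DESeq2 were run on them as alternatives.

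The 81 members, the gene lists and the tests were chosen with earlier results of these data known. Genes with at least 10 normalized counts in at least 5 libraries were tested, 15268 in all. log2(value + 1) was fitted with limma 3.58.1 in R 4.3.3 (trend and robust empirical Bayes) over all libraries, with group and batch as terms, two-sided, with Benjamini-Hochberg adjustment over all genes tested and a threshold of 0.05. A fold change on this scale understates the change of low genes. Scripts were tested on simulated data. Coordinates are from GENCODE M21 (GRCm38), where 19931 of 19945 symbols were found. Where a group had no read, 3 reads per library served as its floor, and floors cover counting error only.

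Named members were, per comparison and complex, the largest called rise and fall whose higher group averaged 100 or more and whose sign was shared by both batches, all mitochondrial members, members not tested, and 15 genes added for their roles; other genes were the largest called rise and fall of each list. Same-numbered libraries of different groups did not deviate together, so the numbers were not used as pairs. Alternatives were a pseudocount of 0.5, no filter, equal library totals, edgeR 4.0.16, DESeq2 1.42.0, a replicate block, the libraries of both groups alone, the closest libraries averaged, leaving out 4 libraries that stood apart, each batch alone, leaving out each library, and, added after the data were seen, a batch by group interaction. One member is not reported here by name.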

Additional observations from a re-analysis of the deposited data

Results flagged for a closer look

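Within groups of 5 or 6 libraries, 21 values of named members lay so far from the rest that their gap passed Dixon's 95% critical value, which chance does in about 1 in 20 groups. On the log2(normalized count + 1) scale, culture replicate 5 was the highest of its group for Sdhb (12.82), Cox7c (12.01), Uqcrh (13.75), Cox7b (14.24), Atp5j2 (14.12), Ndufc2 (12.50), Ndufa4 (11.39), Cox7a2 (13.97) and Cox7a2l (12.34). The same library was the lowest for Atp5a1 (12.92) and Cox7a1 (0.00). Culture replicate 4 was the highest for Uqcrc1 (14.62), Sdhc (12.79), Uqcr11 (13.84) and Cox8a (13.45). Both libraries are the culture libraries of batch 2.

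In the other groups brain replicate 2 was high for Uqcrh (12.70) and blood day 1 replicate 2 for Cox6b2 (9.61). Genes that were at or near 0 elsewhere in their group were flagged in single libraries: Ndufa4l2 in blood day 5 replicate 2 (2.72), Cox4i2 in blood day 5 replicate 5 (2.22), Cox8c in blood day 5 replicate 4 (4.56) and Cox8b in blood day 1 replicate 6 (1.32).

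An interaction term of a limma fit asked whether the change against culture differed between batch 1 and batch 2. It did for 3 members in day 5 blood (Atp5c1, Ndufs7 and Cox7c) and 2 in day 1 blood (Cox6c and Ndufa6). In brain the term called Ndufa4l2 alone, which was tested only through its brain levels and is left aside. In day 5 blood the log2 difference of Ndufs7 was 1.03 in batch 1 and -1.27 in batch 2, and that of Cox7c was -0.54 in batch 1 and -2.57 in batch 2. In day 1 blood that of Cox6c was 0.26 in batch 1 and -2.17 in batch 2.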

How the results depend on the processing

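No call of a named member turned to the other direction under any alternative. Among 3151 recomputed results of the 30 named members, signs turned in 45 when a library was left out and in 78 under other alternatives, all of them differences that were not called. Counts of calls moved by over 1.5 times as follows, and the cause was not tested. For brain against culture (15 higher, 8 lower), edgeR gave 7 and 16, the libraries of both groups alone 9 and 4, batch 2 alone 8 higher, and the closest libraries averaged 5, the 4 libraries left out 13 and batch 1 alone 1 lower. For day 5 blood against culture (4 higher, 21 lower), equal totals gave 8 higher, edgeR 2, averaging 2 and batch 2 alone 0, and DESeq2 33 and batch 1 alone 5 lower. For day 1 blood against culture (9 higher, 8 lower), edgeR gave 4 higher, the libraries of both groups alone 5, averaging 3 and batch 2 alone 1, and DESeq2 14, the libraries of both groups alone 3 and batch 1 alone 3 lower. For brain against day 5 blood (28 higher), equal totals gave 11, edgeR 11, batch 1 alone 8 and batch 2 alone 13. Fits to 1 batch have fewer samples. Calls over all genes moved as well. Under the settings named they ranged from 6085 to 8515 for brain against culture, where the main fit gave 7513. Against culture they ranged from 3447 to 5612 in day 5 blood (main fit 4748) and from 2677 to 5854 in day 1 blood (main fit 4905). Brain against day 5 blood had 5701 to 7342 (main fit 7306).

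Leaving out each library in turn gave 9 to 22 higher and 4 to 13 lower for brain, 2 to 6 higher and 17 to 22 lower for day 5 blood, and 6 to 11 higher and 5 to 11 lower for day 1 blood against culture, and 20 to 33 higher for brain against day 5 blood. The log2 ratio of mt-Nd6 to nuclear members ran from -2.55 to 1.06 for brain, -2.30 to 1.31 for day 5 blood and -4.19 to -0.58 for day 1 blood against culture.

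With the replicate block the counts were 15 higher and 8 lower for brain, 4 and 21 for day 5 blood and 8 and 9 for day 1 blood against culture, and 28 higher for brain against day 5 blood; same-numbered libraries correlated at -0.104 to 0.189, so the samples were not treated as paired.

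Equal totals moved the median of all genes from 0.47 to 0.08 for brain against day 5 blood and from 0.14 to 0.44 for day 5 blood against culture, and edgeR moved it from 0.67 to 0.22 for brain against culture. The member median less the all-gene median was 0.13 with the deposited scaling and 0.12 with equal totals for brain against day 5 blood, and -0.79 and -0.73 for day 5 blood against culture. For brain against day 5 blood it turned to -0.17 without the 4 libraries and -0.15 in batch 1 alone, and was 0.44 in batch 2 alone. The member median for brain against culture turned from 0.17 to -0.16 with edgeR and to -0.19 without the 4 libraries. Depth limits the second-form genes, whose levels in blood and culture are a few reads.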
